A study of Mus musculus with 3 samples.

Results

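The duct of the embryonic kidney was examined for 8 genes that build and sort the epithelial cell surface: Epcam, a surface adhesion glycoprotein, and St14, Prss8, Spint1, Spint2, Ap1m2, Rab25 and Elf3. The genes were chosen by name through the platform annotation, with earlier results of these data known. All 8 were found among the 19938 genes that had a probe set naming no other gene, each with 1 probe set. The cells came from mouse embryos of the CD-1 strain at 10.5 days post coitum (Theiler stage 18), the time at which the ureteric bud leaves the nephric duct. All embryos carried the transgene Tg(Hoxb7-EGFP)33Cos, in which the Hoxb7 promoter drives green fluorescent protein in the duct and its derivatives, and the cells were freed with trypsin and sorted by fluorescence. The 3 arrays, numbered 1 to 3 in the titles, are replicates of a single group with 1 duct each, and their sex is given as unknown. No other tissue, genotype or stage was analysed here, and each gene could only be compared with background probe sets on the same arrays. Nothing in the labels says that the ducts came from separate embryos, so p-values reflect array-to-array spread alone, and that spread may be technical.

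Epithelial cells carry a protease cascade on their surface. Matriptase (St14) and prostasin (Prss8) are membrane-bound serine proteases that act on each other, and the Kunitz-type inhibitors encoded by Spint1 and Spint2 hold them in check. In intestinal epithelium, matriptase that escapes inhibition cleaves Epcam, which binds and stabilises the claudin encoded by Cldn7 at the lateral membrane. Ap1m2 encodes the epithelial medium chain of a clathrin adaptor, known as AP-1, that sends proteins to the basolateral side. Rab25 is an epithelial relative of Rab11 in apical recycling, and Elf3 is an epithelial Ets transcription factor.

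Stretches upstream of the annotated start are given for 4 of these genes as examples. Those of Spint2 and Elf3 were searched too and are not printed. They come from RefSeq on build GRCm38.p6, where 6 of the 8 genes had an entry. Each is the 250 bases before the start, written 5′ to 3′ on the gene's strand. Capitals mark CACCTG, the E-box read by Snail and Zeb repressors among other factors, and ACCGGT, the core of the Grainyhead-like site, on either strand.
Epcam, chr17:87635729-87635978, plus strand: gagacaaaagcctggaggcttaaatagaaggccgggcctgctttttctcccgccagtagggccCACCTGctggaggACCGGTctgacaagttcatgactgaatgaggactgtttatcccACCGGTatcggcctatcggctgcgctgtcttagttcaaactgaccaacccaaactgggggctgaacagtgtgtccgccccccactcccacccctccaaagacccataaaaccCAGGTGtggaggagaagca
Spint1, chr2:119237110-119237359, plus strand: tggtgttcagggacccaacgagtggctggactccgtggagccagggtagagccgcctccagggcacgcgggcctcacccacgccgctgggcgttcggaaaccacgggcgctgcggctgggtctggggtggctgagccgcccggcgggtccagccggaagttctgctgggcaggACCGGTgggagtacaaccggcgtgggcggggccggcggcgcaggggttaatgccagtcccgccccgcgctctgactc
Ap1m2, chr9:21312334-21312583, minus strand: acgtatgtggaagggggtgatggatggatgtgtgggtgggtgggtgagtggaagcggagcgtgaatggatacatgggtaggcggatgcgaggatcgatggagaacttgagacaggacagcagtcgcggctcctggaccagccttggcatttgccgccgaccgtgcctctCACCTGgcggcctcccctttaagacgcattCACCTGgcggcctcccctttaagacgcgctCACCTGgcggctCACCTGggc
Rab25, chr3:88548280-88548529, minus strand: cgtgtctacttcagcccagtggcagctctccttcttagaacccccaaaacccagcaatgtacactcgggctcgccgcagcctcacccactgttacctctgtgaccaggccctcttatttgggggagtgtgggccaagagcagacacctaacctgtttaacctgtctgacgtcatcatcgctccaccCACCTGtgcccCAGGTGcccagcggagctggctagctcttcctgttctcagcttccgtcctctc

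CACCTG stood in the upstream stretch of 5 of the 6 genes, Epcam, Spint2, Ap1m2, Rab25 and Elf3, against 17.2% of 32851 stretches of the same length from 27025 genes. The Ap1m2 stretch held it 4 times, beginning 81, 51, 21 and 9 bases before the start, the first 3 at a spacing of 30 bases. The first 2 copies are followed by nearly the same letters up to the next copy, so these copies lie in a repeated stretch. A count of 4 or more was found in 14 of the 32851 stretches (0.0426%). That cut was taken from the count in Ap1m2 itself, so the share is a description and no test. Spint2 held 3 copies, Epcam and Rab25 held 2 each, and Elf3 held 1. ACCGGT occurred in 2 of the 6, with 2 copies in Epcam and 1 in Spint1, against 1.86% of all stretches. Of the 6, Spint1 held the Ets core CCGGAA, against 12.03% of all stretches. The 3 motifs were searched on both strands with overlapping matches counted, and matches of different motifs did not overlap in these genes. A match describes the letters and shows no binding, and some genes contribute several starts to the shares.

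**Figure D1:**
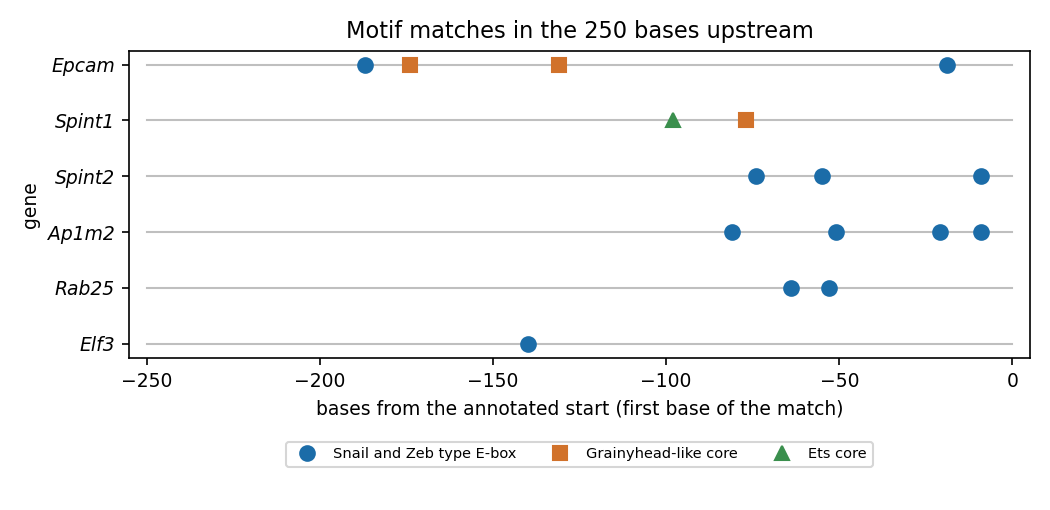
Each line is the 250 bases upstream of the annotated start of 1 gene, and each symbol marks the first base of a motif match in bases from the start (circles the E-box, squares the Grainyhead-like core, triangle the Ets core). The 4 circles of Ap1m2 lie within 81 bases of the start, and Spint1 has a square and a triangle but no circle.

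All 8 genes read above the background of the arrays. Background was the 95th percentile of 1212 probe sets for olfactory and vomeronasal receptors, genes of sensory neurons, and it lay at 5.69, 5.73 and 5.70 log2 units on arrays 1, 2 and 3. A gene was called when limma's one-sided test of its value over this cutoff gave a Benjamini-Hochberg adjusted p under 0.05 across all probe sets with a single gene. Of all genes 56.2% were called, so a call by itself is common. The median of the 8 gene means was 7.14, against 6.04 for all genes. At the 99th percentile of the receptors, a mean cutoff of 6.38, 7 of the 8 genes were called against 36.1% of all genes. With the cutoff raised by 1 log2 unit 6 were called, against 28.4% of all genes. Because the 8 genes were chosen with earlier results of these data known, these counts are a description and no test. Values are log2 signals, which do not rank transcripts between genes because probe sets differ in affinity. In such bulk samples fewer cells with a transcript and less transcript per cell cannot be told apart.

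Epcam read 9.05 on each of the 3 arrays. It lay 3.34 log2 units above the mean cutoff (limma, adjusted p = 2.26e-06), and 0 of the 1212 receptor probe sets were brighter on any array. The deposited table holds exactly the same value on all arrays for 50.8% of genes, and Epcam, St14 and Ap1m2 are among them. Their SD of 0 is no measure of replicate error. Their adjusted p rests on how the cutoffs differed between arrays and on limma's moderation. With the spread of such probe sets taken from those that differed, the limma adjusted p was 6.6e-07 for Epcam, 1.8e-05 for St14 and 1.76e-05 for Ap1m2. That setting gave all of them 1 spread and raised limma's weight on the common spread (prior degrees of freedom 2.95, against 1.13). These p-values do not measure the replicate error of the 3 genes either. Spint2, Elf3 and several partner genes below, such as Tfpi, held exactly the same value on 2 of the 3 arrays. Their SD and adjusted p are therefore no full measure of replicate error.

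Of the proteases, St14 read 7.03 on all 3 arrays, 1.32 above the mean cutoff (limma, adjusted p = 8.46e-06). On each array 3 of the 1212 receptor probe sets were brighter. Prss8 read 7.45, 7.07 and 7.24 on arrays 1, 2 and 3, a mean of 7.25 ± 0.19 (SD, n = 3; limma, adjusted p = 0.000509). Its lowest array lay 1.34 log2 units above that array's cutoff, and 2 or 3 receptor probe sets were brighter on an array.

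Both inhibitors were read on every array as well. Spint1 read 7.96, 7.12 and 7.42 on arrays 1, 2 and 3, or 7.50 ± 0.43 (SD, n = 3), which lay 1.79 above the mean cutoff (limma, adjusted p = 0.0027). Array 1 was the highest and array 2 the lowest, a 1.79-fold range on the linear scale. Spint2 read 7.85 on array 1 and 7.67 on each of arrays 2 and 3, or 7.73 ± 0.10 (SD, n = 3), which lay 2.02 above the mean cutoff (limma, adjusted p = 5.8e-05). On each array 1 receptor probe set was brighter than Spint2.

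Of the sorting genes, Ap1m2 read 7.03 on all 3 arrays, 1.32 above the mean cutoff (limma, adjusted p = 8.35e-06), with 3 receptor probe sets brighter on each. That number was not particular to Ap1m2, since 22, 25 and 16 other probe sets held it on arrays 1, 2 and 3. Rab25 read 7.66 on array 1, and 6.72 and 6.70 on arrays 2 and 3, or 7.03 ± 0.55 (SD, n = 3). It lay 1.32 above the mean cutoff (limma, adjusted p = 0.0125), the largest adjusted p of the 8. It was not called with the cutoff raised by 1 log2 unit (limma, adjusted p = 0.468), and it was called whichever array was left out. On array 2 its value was shared by 42 other probe sets, and 1, 7 and 7 receptor probe sets were brighter on arrays 1, 2 and 3.

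Elf3, the transcription factor, lay closest to background. It read 6.01 on arrays 1 and 2 and 6.02 on array 3, which is 0.30 above the mean cutoff (limma, adjusted p = 0.000318). On the 3 arrays 31, 36 and 32 of the receptor probe sets were brighter, or 2.56%, 2.97% and 2.64% of them. At the 99th percentile its distance to the cutoff was -0.37 log2 units, so its call rests on the choice of background.

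**Figure D2:**
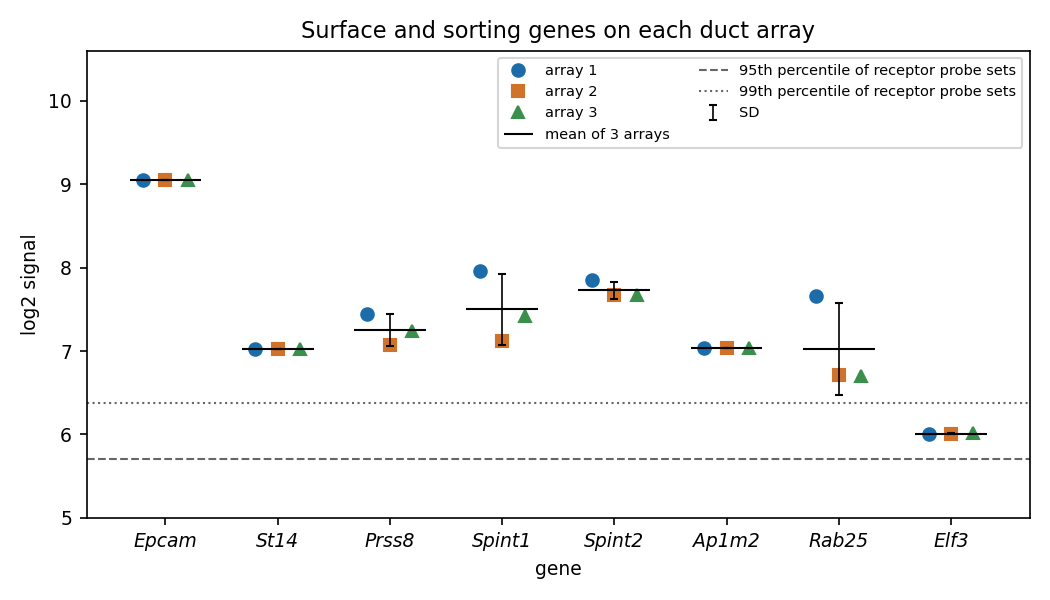
The log2 signal (vertical axis) of the 8 genes is shown on each array (symbols), with the mean (bar) and SD (whiskers) of the 3 arrays and the mean 95th and 99th percentile of the receptor probe sets (dashed and dotted lines). Epcam stands at 9.05, the 6 genes from St14 to Rab25 have means of 7.03 to 7.73, and Elf3 at 6.01 lies between the 2 lines.

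The genes differed in how closely the arrays lay together. Of the 5 whose value was not the same on all arrays, 4 were highest on array 1 (Prss8, Spint1, Spint2 and Rab25), against 22.1% of all genes with differing values. Related lists described below shared this in part. The share was 71.4% in other inhibitors (5 of 7), 53.8% in Epcam partners (7 of 13) and 50% in duct markers (4 of 8). It was 0% to 33.3% in the other partner lists. In red cell markers it was 75% (3 of 4), and 0% to 27.3% in the other marker lists. A gene whose highest value was shared by 2 arrays did not count as highest in any of these shares. Rab25 on array 1 was 1.94-fold above its mean over arrays 2 and 3 on the linear scale of the log2 difference, Spint1 1.61-fold, Prss8 1.22-fold and Spint2 1.13-fold. The range of Rab25 was wider than that of 93.0% of genes with differing values, and that of Spint1 wider than 90.9%. Rab25 lay 0.99 above the cutoff without array 1 (limma, adjusted p = 6.27e-05), and 1.48 above it without array 2 (limma, adjusted p = 0.0446).

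Markers of other cells differed between the arrays too. Red cell markers summed to 1734 linear units on array 1, 258 on array 2 and 260 on array 3, and 1 of the 6 measured was called. The embryonic globin genes Hbb-y and Hba-x read 10.02 and 8.89 on array 1, 5.31 and 5.97 on array 2, and 5.45 and 5.84 on array 3. Neither globin gene was called (limma, adjusted p = 0.337 and 0.197). The red cell membrane gene Rhag read 3.97 on each array. Endothelial markers summed to 4110, 2172 and 4349 linear units on arrays 1, 2 and 3. All 11 were called, against 56.2% of all genes, led by Emcn at 10.07 ± 0.69 and Cdh5 at 9.10 ± 0.58. Esam was lowest at 6.05 ± 0.10. Of the 11 endothelial markers 11 were lowest on array 2, as were Spint1 and Prss8. Duct markers summed to 8902, 7808 and 8092 linear units, and of the 8 duct markers with differing values 4 were highest on array 1 and 6 lowest on array 2. The 8 surface and sorting genes summed to 1712, 1438 and 1486 linear units. The part of these markers in the differences between arrays was not tested.

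**Figure D3:**
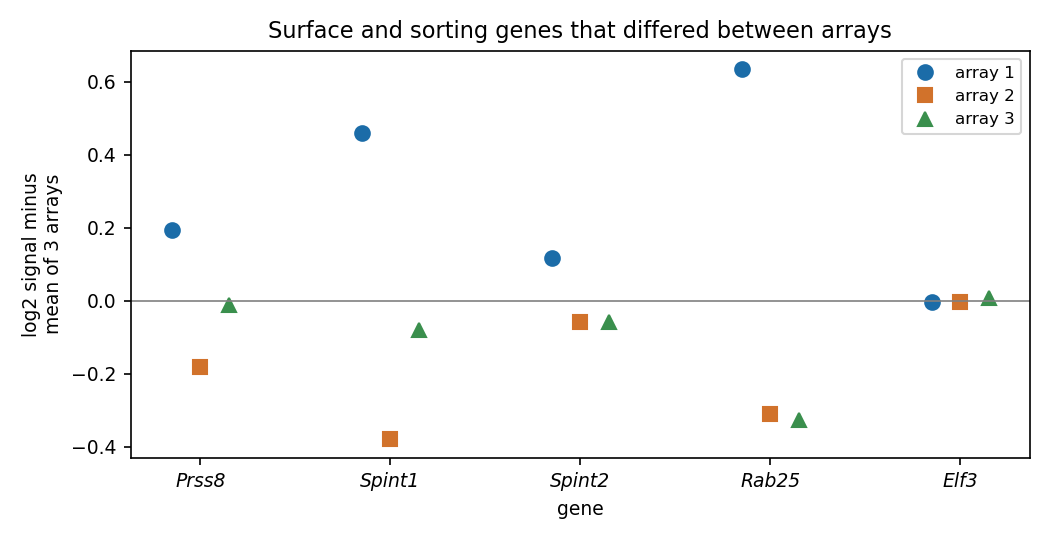
For the 5 genes whose value differed between arrays, the log2 signal on each array minus the gene's mean over the 3 arrays is plotted. Array 1 (circles) is highest for Prss8, Spint1, Spint2 and Rab25, and the symbols of Elf3 lie together near 0.

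Among other membrane-bound serine proteases 6 of 17 were called (35.3%, against 56.2% of all genes). At the 99th percentile 3 were called (17.6%, against 36.1%). The list median was 5.30 against 6.04 for all genes. Tmprss2, a transmembrane protease known from prostate and airway epithelium, read 7.15 on arrays 1 and 2 and 7.49 on array 3. The membrane-anchored protease gene Prss27 read 6.94 on all arrays, and Hpn, which encodes hepsin, read 6.64 ± 0.04. Tmprss6, the matriptase relative that controls hepcidin in liver, read 6.37 on all arrays and was not called at the 99th percentile. Tmprss11d at 3.56 and Tmprss15, which encodes the gut enteropeptidase, at 3.59 ± 0.14 were not called. The other calls, Tmprss4 at 5.95 and Tmprss3 at 5.86, named after their values were seen, also ended at the 99th percentile.

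The inhibitor list held 9 measured genes, of which 5 were called (55.6%, near the 56.2% of all genes). At the 99th percentile 4 were called (44.4%, against 36.1%). The Kunitz-domain precursor proteins App and Aplp2 read 9.27 ± 0.42 and 9.92 ± 0.32, and both were highest on array 1. Tfpi, the tissue factor pathway inhibitor, read 7.46 ± 0.02, and Wfikkn1, a multidomain inhibitor, 7.11 ± 0.12. Tfpi2, a relative of Tfpi, at 6.28 ± 0.14 was called, but not at the 99th percentile. Spint3 at 5.49 ± 0.03 and Spint4 at 4.47, the other Spint genes measured, were not called, nor were Wfikkn2 at 5.02 and Serpina5 at 4.18 ± 0.01.

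Of the substrates of these proteases and their receptors 5 of 11 were called (45.5%, against 56.2% of all genes). At the 99th percentile 1 was called (9.09%, against 36.1%). That gene was Met, the receptor of hepatocyte growth factor, at 7.81 on all arrays, 2.11 above the mean cutoff (limma, adjusted p = 3.73e-06). Its ligand gene Hgf at 4.56 was not called, while the activator gene Hgfac at 5.85 and the related growth factor gene Mst1 at 5.90 were. The receptor gene Mst1r at 5.19 was not called. Of the epithelial sodium channel subunits, which prostasin activates by cleavage in kidney epithelium, Scnn1g at 6.06 was called, and Scnn1a at 4.45 ± 0.01 and Scnn1b at 5.31 ± 0.07 were not. Cdcp1, a surface protein cut by matriptase, read 6.14 and was called. The urokinase gene Plau at 5.70 ± 0.19 and its receptor gene Plaur at 5.55 were not called. Without array 3, in a fit where limma gave all genes a common spread, 3 were called, and Hgfac and Mst1 were not among them.

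Of 17 measured partners of Epcam 13 were called (76.5%, against 56.2% of all genes), with a list median of 7.56. Above the 99th percentile 12 of them were called as well (70.6%, against 36.1%). Cldn7, the claudin that Epcam binds, read 9.89, 8.95 and 9.56 on arrays 1, 2 and 3, or 9.47 ± 0.48 (SD, n = 3; limma, adjusted p = 0.000482). Like Spint1 and Prss8 it was highest on array 1 and lowest on array 2. The tetraspanin gene Cd81 read 9.56 ± 0.34, the beta-catenin gene Ctnnb1 9.60 ± 0.06, and Psenen, a gamma-secretase subunit, 10.61 ± 0.36. Tspan8 at 3.83 ± 0.25 and Cd44 at 4.85, surface partners of Epcam in carcinoma cells, were not called. Named after their values were seen, Cldn4 at 7.58 ± 0.23 and Cldn3 at 6.54 ± 0.03 were called, and Cldn1, at 5.75, 6.15 and 6.90 on arrays 1, 2 and 3, was not (limma, adjusted p = 0.111). The genes of proteases that can release the outer part of Epcam, Adam10 at 8.45 ± 0.03 and Adam17 at 8.28 ± 0.12, also named after their values were seen, were called.

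In the adaptor list 11 of 12 genes were called (91.7%, against 56.2% of all genes). At the 99th percentile 9 were called (75%, against 36.1%). Ap1m1, the medium chain of most cell types where epithelia add Ap1m2, read 7.26 on arrays 1 and 3 and 6.86 on array 2, or 7.12 ± 0.23 (SD, n = 3; limma, adjusted p = 0.00107). Both medium chains of AP-1 were thus above background. The large subunits Ap1g1, Ap1b1 and Ap1g2 read 8.87 ± 0.07, 6.82 and 6.20 ± 0.02. The small subunits Ap1s3, Ap1s1 and Ap1s2 read 7.83 ± 0.02, 7.79 ± 0.24 and 7.10 ± 0.33. Of the medium chains of other adaptors, Ap3m1 read 8.99 ± 0.42 from 1 probe set and 7.09 from a dimmer second one, Ap2m1 8.34, Ap4m1 7.25 and Ap3m2 6.48 ± 0.09, while Ap5m1 at 4.78 was not called.

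Of 24 recycling genes around Rab11 23 were called (95.8%, against 56.2% of all genes). The 99th percentile left 16 (66.7%, against 36.1%). Rab11a, the widely used relative of Rab25, read 10.05 on all arrays (limma, adjusted p = 1.96e-06). Rab11b read 7.61, 7.64 and 8.88 on arrays 1, 2 and 3 with its brighter probe set, while a dimmer one gave 6.17 on all arrays. Rab14 at 10.50 ± 0.03, Rab10 at 9.64 and Rab8a at 9.14 ± 0.26 are small GTPases of membrane transport. The Rab11 effector gene Rab11fip5 read 6.14 and was called, and Rab11fip4 at 5.65 was not.

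Among relatives of Elf3 and other epithelial transcription factors 10 of 13 were called (76.9%, against 56.2% of all genes). At the 99th percentile 5 were called (38.5%, near the 36.1% of all genes). Grhl2, a Grainyhead-like activator of epithelial genes, read 7.13 on array 1 and 7.54 on arrays 2 and 3, or 7.40 ± 0.24 (SD, n = 3; limma, adjusted p = 0.000485). Elf2 read 7.06, Klf5 6.78 and Spdef 6.74, each on all arrays. Elf5 at 5.24 and Ehf at 5.40 ± 0.01, which like Elf3 and Spdef are Ets factors of epithelia, were not called, nor was Grhl1 at 5.15.

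**Figure D4:**
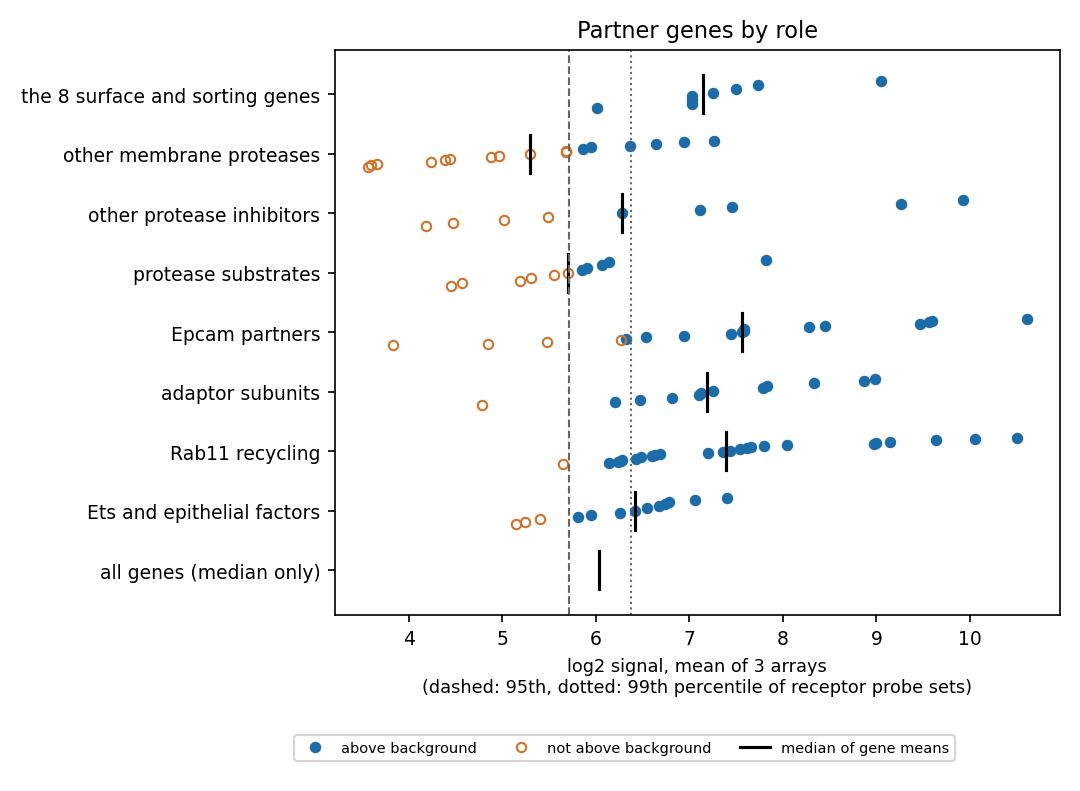
Each point is the mean log2 signal of 1 gene over 3 arrays, in rows for the 8 genes, their partner lists and all genes (median only), with filled points for genes above background, open points for the others, and a bar for the median. The median of the 8 genes is 7.14, that of other membrane proteases 5.30, and that of Epcam partners 7.56.

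The sorted cells were checked for their labelled type and for other cells, some of which also carry Epcam. Beside the counts that follow, 56.2% of all genes were called, and 36.1% at the 99th percentile. All 13 duct markers were called, and 13 at the 99th percentile, with the calcium-binding protein gene Calb1 at 11.71 ± 0.03, the keratin gene Krt8 at 10.56 ± 0.37, and the Wnt ligand gene Wnt9b lowest at 6.96. Hindgut endoderm markers were called in 4 of 9 cases, with Tff3 at 6.48, Cdx1 at 6.34 and Cdh17, which was not called, at 4.57, and their sum was 464 to 469 linear units on the 3 arrays. Surface ectoderm markers were called in 1 of 7, with Krt14 at 5.78, against Perp at 5.58 ± 0.17 and Dsg3 at 4.17, which were not called, and a sum of 271 to 272. Germ cell markers were called in 1 of 8, with Nanos3 at 6.04 against Prdm1 at 5.04 and Ddx4 at 4.00, which were not called, and a sum of 227 to 241. At the 99th percentile limma's adjusted test called 0 genes of these 3 lists, and at an unadjusted p under 0.05 it called 1 hindgut marker and 0 of the other two. Mesenchyme and stroma markers were called in 3 of 12, and their sum was 476 to 491. Col1a1 at 6.75 was called, and Pdgfra at 5.88 ± 0.18 and Lum at 3.23 were not. The count was 1 at the 99th percentile, and also 1 when probe sets with identical values were given the spread of the others. Leukocyte markers were called in 1 of 7, with Cx3cr1 at 6.54 against Cd68 at 6.31 ± 0.51 and Adgre1 at 4.09, which were not called, and a sum of 279 to 324. Without array 3, in the fit with a common spread, the counts were 2 hindgut, 1 mesenchyme, 0 surface ectoderm, 2 leukocyte and 3 red cell markers. Without array 1 they were 0 surface ectoderm, 2 leukocyte and 2 red cell markers. All 11 endothelial markers were called whichever array was left out. How far endothelial RNA adds to the signals of the 8 genes was not tested.

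**Figure D5:**
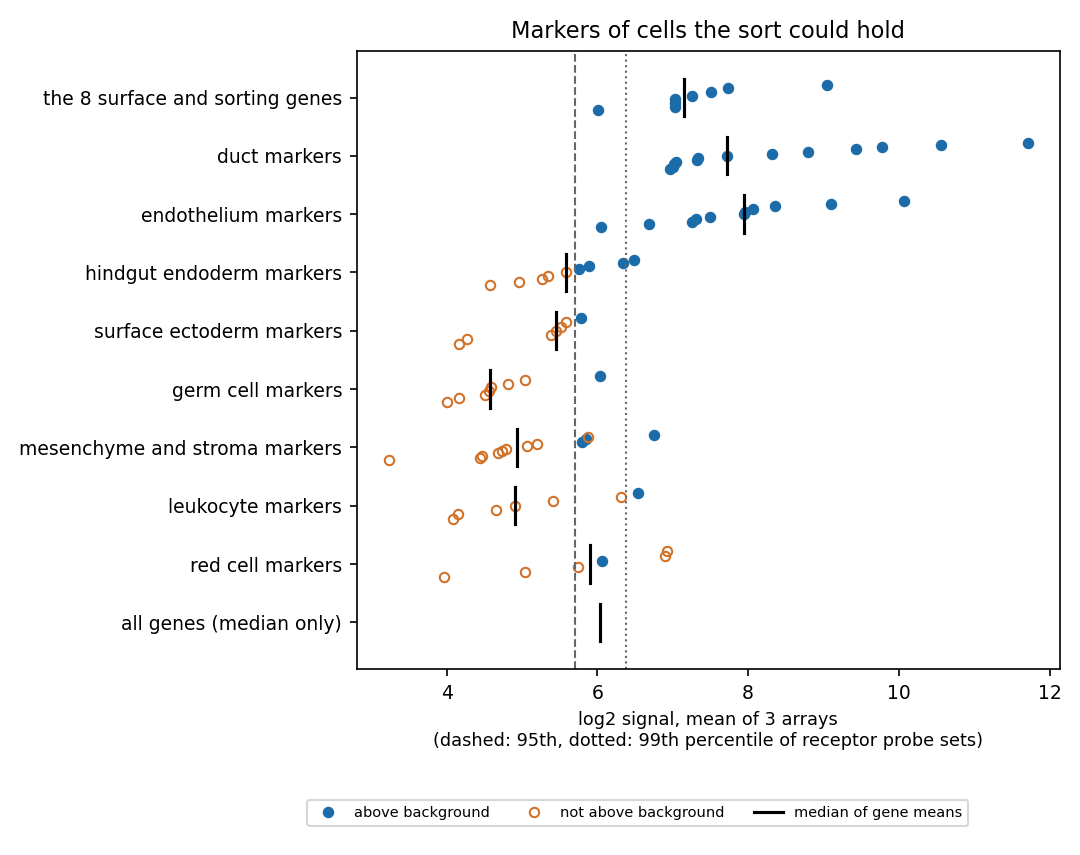
Each point is the mean log2 signal of 1 gene over 3 arrays, in rows for the 8 genes, the marker lists and all genes (median only), with filled points for genes above background, open points for the others, and a bar for the median. Duct and endothelium markers lie above the dashed line throughout, and the medians of the hindgut, surface ectoderm and germ cell lists (5.58, 5.45 and 4.58) lie below it.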

How the data were processed

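The deposited table gives 1 log2 signal for each of 35557 probe sets on each of 3 arrays, summarised by the authors. The log2 scale was read from the values (1.90 to 14.2, array medians 5.85 to 5.90). The submitters' processing notes name Affymetrix Expression Console, whose algorithm is not given in the sources used here. RNA was amplified in 1 round, per the labels' protocols. The platform annotation gave 21789 probe sets a single symbol. Those with several (1621) or none (12147) were left out. By Entrez number 21698 matched the GRCm38.p6 gene table. A gene took its brightest probe set.

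Values minus each array's cutoff were fitted with limma 3.58.1 (R 4.3.3), with a one-sided p adjusted by Benjamini-Hochberg over 21789 probe sets. In simulated data for the duct arrays, every probe set had the same spread of 0.116 log2 units, and there were no ties. The test called 92% of probe sets set 0.25 above the cutoff and 100% at 0.5 or 1 above it. It called 0% at 0.5 below, where a one-sided test could hardly call any. Real probe sets differ in spread (SD 0.43 for Spint1 and 0.55 for Rab25) and many hold ties. These shares therefore do not give the power for the 8 genes. The members and lists were chosen with earlier results of these data known. Named were all 8 genes, partner genes of lists with up to 12 measured, otherwise the 4 highest, 2 lowest and close relatives, and 2 highest and 1 lowest markers. Some list genes and protein sequences were not analysed here. The number of arrays limits the precision.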

Additional observations from a re-analysis of the deposited data

How the results depend on the processing

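Of 14 alternatives, 3 could not move the distances of the 8 genes: the probe set rules, since each has 1 probe set, and median centring, which moves values and cutoffs alike. Under the other 11 (cutoffs, spreads, filter, moderation and left-out arrays), Epcam, St14, Prss8, Spint1, Spint2 and Ap1m2 were called throughout, Rab25 in 10 and Elf3 in 9. The distance of Elf3 was -0.37 at the 99th percentile and -0.70 at a cutoff 1 log2 unit higher, where Rab25 lay 0.32 above it and was not called. Over all genes 11203 were called, 7190 at the 99th percentile and 5653 at the raised cutoff. At the raised cutoff the partner lists together gave 42 calls among 103 measured genes, down from 73 calls. All marker lists gave 18 calls, down from 35. These were 11 of 13 duct markers and 7 of 11 endothelial markers, with 0 in every other marker list. Single partner lists at that cutoff gave 2 of 17 membrane proteases, 4 of 9 inhibitors, 1 of 11 substrates and 11 of 17 Epcam partners. They gave 7 of 12 adaptor genes, 14 of 24 recycling genes and 3 of 13 epithelial factors, against 28.4% of all genes. At the 99th percentile 3 of 17 membrane proteases, 1 of 11 substrates and 5 of 13 epithelial factors were called, against 36.1% of all genes. At the 30th percentile of all probe sets 9 of 11 substrates were called, and 15005 of all 19938 genes. The higher cutoffs leave fewer genes by construction. Leaving out 1 array gave 10364 to 11008 genes, 8 of the 8 surface and sorting genes each time, 67 to 73 partner genes and 3 to 5 substrates. Without array 3 limma gave all genes one spread, so that fit ignores each gene's own error. No paired analysis was possible because the arrays form a single group. Signal over background limits the result for Elf3.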
